A study of Mus musculus with 3 samples.

Results

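The Egr1+ Cd5+ cells described here were single cells of mouse thymi in which transcripts of genes induced by antigen-receptor signalling were counted together with Cd5, and in which no transcript of 4 other genes was counted. The cells were selected on these measured counts, and a cell was kept where at least 1 unique molecular identifier (UMI, a tag that marks 1 captured transcript) was counted for Egr1, at least 1 for Cd5 and at least 1 for Nab2 or Nr4a1, and where Trac, Cd44, Cd8a and Cd8b1 were at 0. The rule was applied to cells with 500 to 5000 detected genes and at most 7% mitochondrial counts. It found 113 of 13027 cells in 2 of the 3 libraries of the series. In the first run, 12 of 5516 cells met it (0.218%, 95% exact binomial interval 0.112 to 0.380), and in the third run 101 of 7511 (1.34%, 1.10 to 1.63). Each rule gene was counted more widely in the third run. Egr1 was in 21.6% of its cells against 3.63% in the first, and Cd5 in 23.0% against 8.32%. Nr4a1 was in 18.6% against 3.88%, and Nab2 in 8.68% against 4.30%. The cause of the difference in shares between the runs was not tested.

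The study profiled early thymocytes of C57BL/6 mice (age label week 6, collected at 6 to 8 weeks) by droplet single-cell RNA-seq of transcript 3′ ends, to follow the double negative (DN) stages, which lack CD4 and CD8, and the αβ and γδ lineages that leave them. The first run held total DN cells with TCRγδ+ cells, the second DN1 and DN2 cells, and the third DN1 and DN2, DN3 and γδ cells that were sorted separately and mixed. All 3 came from thymi of this strain with no treatment of the mice named, 4 pooled per library. Each sort was made once, so the 2 runs were not replicates, no statistical test between cell groups was possible, and intervals in this text cover counting error only. The submitted matrices held 5527, 8887 and 8869 cells with 39947415, 52797915 and 98533329 UMIs. The first and the third run shared 3 cell barcodes, none of them among the Egr1+ Cd5+ cells.

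Developing thymocytes must assemble a working receptor before they leave the DN stages: either the pre-TCR, in which the invariant pre-TCRα chain encoded by Ptcra pairs with a rearranged β chain, or a rearranged γδ receptor. Signals from either complex run through Lck, Zap70 and the ERK and calcineurin pathways and induce immediate early transcription factors such as Egr1 and Nr4a1. Egr factors in turn induce Nab2, a corepressor that limits them, and Id3, an inhibitor of E proteins, and the surface level of CD5, a negative regulator of the receptor, follows signal strength.

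The rule fixes the levels of its own genes, which are therefore given as a description. In the third run the 101 cells held 243 Egr1 UMIs, with 1 UMI in 55 of them and 19 in the highest. They held 229 Cd5 UMIs, with 1 in 56 cells and 8 in the highest. Most cells thus met the rule at its lowest value for either gene. The third requirement was met by Nr4a1 alone in 60 cells, by Nab2 alone in 22 and by both in 19. Among first-run cells it was met by Nr4a1 alone in 2 cells, by Nab2 alone in 4 and by both in 6. Just inside the limit, the 19 cells of the third run with Egr1, Cd5 and the sum of Nab2 and Nr4a1 each at 1 UMI held Trdc at 883 CPM (counts of a gene for every 1000000 UMIs of the cell group), Ptcra at 4.53 and Il2ra at 118. On its other side, the 148 cells that missed only the Egr1 requirement held 783 CPM of Trdc, 8.84 of Ptcra and 179 of Il2ra, and the 207 cells that missed only the Cd5 requirement held 450 CPM of Trdc, 47.2 of Ptcra and 326 of Il2ra. The cells that lacked a Cd5 UMI alone thus held more Ptcra than the cells that lacked an Egr1 UMI alone. A further 78 cells were left out for a Trac UMI alone, and they held 704 CPM of Trdc and 20.3 of Ptcra.

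Deeper cells of the third run met the rule more often. With all cells of the third run divided into 4 equal groups by UMI count, 6, 19, 37 and 39 Egr1+ Cd5+ cells lay in the groups from shallowest to deepest. The same groups of the first run held 2, 5, 4 and 1. The median depth was 11847 UMIs (5332 to 27555) in the 101 cells and 7986.5 in the 4644 comparison cells, which are the run's cells with Egr1, Nab2 and Nr4a1 all at 0. The first-run median was 5371.5 UMIs (2669 to 12926) against 5797 in 4971 comparison cells. A second, narrower comparison therefore used the comparison cells that also had Trac, Cd44, Cd8a and Cd8b1 at 0 and a depth within the interquartile range of the Egr1+ Cd5+ cells (matched comparison cells, 1004 in the first run and 995 in the third). One UMI corresponded to 14.7 CPM over the 12 cells and to 0.766 CPM over the 101, so that most values of the first run are coarse.

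To show the promoter of a gene that the rule uses, the 300 bases around 1 RefSeq start site of Nr4a1 (250 before and 50 after it; GRCm38.p6, chr15:101266596-101266895, + strand) are printed beside those of Id3 (chr4:136143572-136143871, + strand), the gene outside the rule that stood out in both runs. Capitals mark the matches, on either strand, to an Egr core (GCGTGGGCG or GCGGGGGCG) and to a CRE-like element (TGCGTCA or TGACGTCA).
Nr4a1: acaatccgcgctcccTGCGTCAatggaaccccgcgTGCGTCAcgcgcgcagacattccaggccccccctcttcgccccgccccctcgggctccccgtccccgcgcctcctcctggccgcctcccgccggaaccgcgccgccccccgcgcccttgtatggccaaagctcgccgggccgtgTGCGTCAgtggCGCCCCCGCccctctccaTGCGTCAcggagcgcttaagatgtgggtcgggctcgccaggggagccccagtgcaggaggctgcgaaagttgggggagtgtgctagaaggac
Id3: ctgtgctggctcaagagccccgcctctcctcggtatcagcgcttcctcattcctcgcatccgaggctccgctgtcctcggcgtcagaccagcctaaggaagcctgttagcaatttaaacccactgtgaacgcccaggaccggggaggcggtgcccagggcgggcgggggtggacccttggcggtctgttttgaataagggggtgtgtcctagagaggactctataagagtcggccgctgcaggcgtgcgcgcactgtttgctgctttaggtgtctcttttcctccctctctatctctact
The Nr4a1 sequence held 1 Egr core at bases 191 to 199 and 4 CRE-like elements (all TGCGTCA) starting at bases 16, 36, 180 and 209, with none overlapping. The Egr core stood in 3.47% and the CRE-like element in 3.81% of 32851 RefSeq promoters of this length (27025 genes). Neither was found in the same window of Id3, Nab2, Cd5 or Pdcd1, and a CArG box, present in 1.63% of the promoters, was found in none of the 5. A match of letters is a description of this window and not a measured binding site.

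Ptcra (ENSMUSG00000036858, mm10 chromosome 17, 46755663 to 46763712, - strand) was at or near background in the Egr1+ Cd5+ cells of the third run, while Trdc was counted in nearly all of them. Of the 101 cells, 5 held a Ptcra UMI (4.95%, 1.63 to 11.2), with 6 UMIs in all. The level was 4.60 CPM (95% Poisson interval 1.69 to 10.0), against 103 CPM in the comparison cells and 106 in the matched ones, a log2 ratio of -4.49 (-5.94 to -3.37) over the former. As a gauge of free RNA, 6.67% of the 360 cells of the run with at least 2 Cd79a UMIs, a B cell marker, held a Ptcra UMI at a median depth of 5275 UMIs. After thinning every cell to 2000 UMIs the shares were 0.990% of the Egr1+ Cd5+ cells and 2.79% of those B cells. The share with Ptcra in the Egr1+ Cd5+ cells was thus no higher than in cells that should lack it, whereas in the comparison cells it was 33.6%.

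Of the 12 first-run cells, 2 held Ptcra, with 5 UMIs between them. Its level was 73.4 CPM (23.8 to 171) against 147 CPM in the comparison cells, and the interval of the log2 ratio (-1.0, -2.63 to 0.22) covered 0. Over the matched cells, at 192 CPM, the log2 ratio was -1.38 with an interval below 0 (-3.01 to -0.16). In thinned cells the first-run log2 ratio of Ptcra over the comparison cells changed sign. Whether the Egr1+ Cd5+ cells were under selection through the pre-TCR was not tested, and they are named here by their rule genes.

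Trdc, the constant segment of the T cell receptor δ chain (ENSMUSG00000104876, mm10 chromosome 14, 54142851 to 54148868, + strand), was counted in 96 of the 101 cells of the third run (95.0%), with a median of 10 UMIs per cell and a range of 0 to 42. Its level was 824 CPM (775 to 875) against 366 CPM in the comparison cells and 400 in the matched cells, a log2 ratio of 1.17 (1.08 to 1.26). All 12 cells of the first run held it, with a median of 5.5 UMIs and a range of 1 to 14. The level there was 1175 CPM (932 to 1462) against 424, a log2 ratio of 1.47 (1.13 to 1.79). Of the B cells of the third run, 15% held a Trdc UMI. Counts at the 3′ end do not show whether a Trdc transcript came from a rearranged gene.

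Set against each other, the 2 receptor genes placed 92 of the 101 cells (91.1%, 83.8 to 95.8) in a class with Trdc and no Ptcra UMI, 4 with both, 1 with Ptcra alone and 4 with neither. Among the comparison cells of that run, 38.6% held Trdc alone, 23.8% both, 9.78% Ptcra alone and 27.8% neither. The matched cells, which are closer in depth, held Trdc alone in 50.9%, both in 31.5%, Ptcra alone in 9.35% and neither in 8.34%. Of the 12 cells of the first run 10 held Trdc alone and 2 held both, against 42.1% and 34.2% of the comparison cells and 47.4% and 29.5% of the matched cells.

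Il2ra (ENSMUSG00000026770, mm10 chromosome 2, 11642807 to 11693193, + strand), which encodes CD25 and marks DN2 and DN3 cells, divided the Egr1+ Cd5+ cells. In the third run 47 of the 101 held it (46.5%, 36.5 to 56.7), with a median of 0 and up to 19 UMIs per cell. The level was 186 CPM (164 to 211) against 318 CPM in the comparison cells and 431 in the matched cells, a log2 ratio of -0.77 (-0.96 to -0.59) over the former and of -1.21 over the latter. Among the first-run cells 4 of 12 held it, at 88.1 CPM (32.3 to 192) against 132, with an interval of the log2 ratio (-0.58, -2.03 to 0.54) that covered 0, and against 288 in the matched cells, with an interval below 0 (-1.71, -3.16 to -0.58). As a share of cells with a UMI, 18.9% of the B cells of the third run also held Il2ra, but B-lineage cells can express it.

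**Figure D1:**
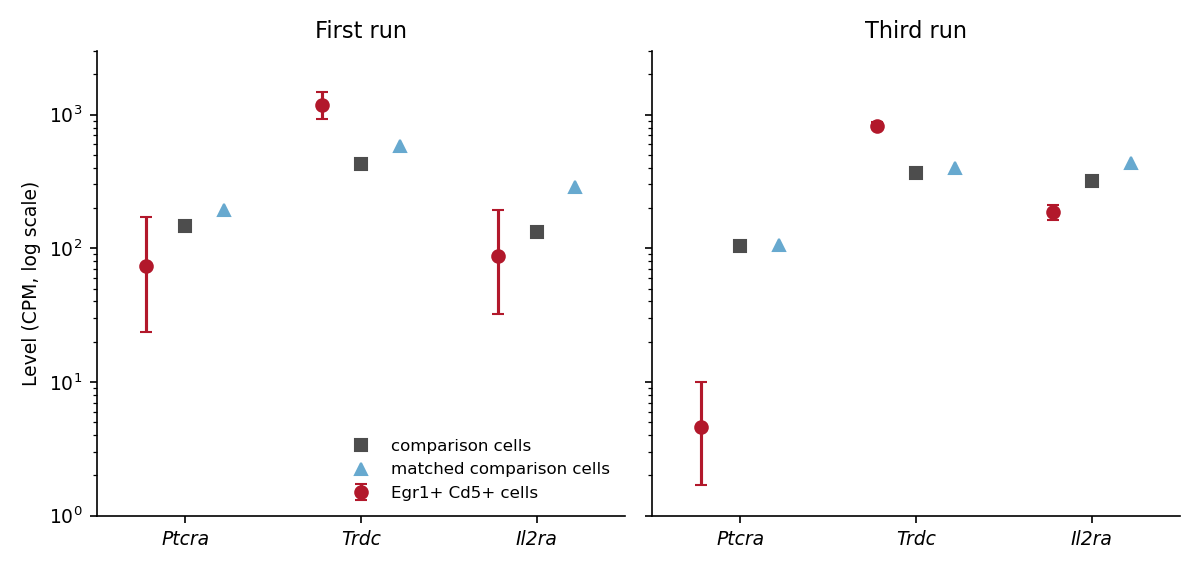
Levels of Ptcra, Trdc and Il2ra in CPM (log axis) in the first run (left, 12 Egr1+ Cd5+ cells) and the third run (right, 101 cells). Circles are Egr1+ Cd5+ cells with 95% Poisson intervals, squares comparison cells and triangles matched comparison cells. In the third run Ptcra lies at 4.60 CPM against 103, and Trdc at 824 against 366.

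Of the receptor-signal genes that the rule did not use, more lay above 2-fold than below it in the Egr1+ Cd5+ cells. From a list of 44 such genes, 36 reached 20 CPM in either cell group of the third run. Of these, 12 were at least 2-fold higher than in the comparison cells, 5 at least 2-fold lower and 19 between. Of all 6201 genes tested in this comparison 0.871% were higher and 2.13% lower by this measure. A gene can enter these counts by reaching 20 CPM in 1 group alone, which favours genes that differ and holds for 7 of the 12 and for 3 of the 5, so the counts carry no weight by themselves. The same holds for the 17 of 32 genes higher than in the matched cells (all genes, 2.91% higher and 1.78% lower) and for the 21 of 26 higher in the first run (all genes, 16.9% and 8.16%). Among the 23 genes of the list at 20 CPM in both groups, 5 were higher (Cd28, Cd69, Gadd45b, Id3 and Tox) and 2 lower (Rgs1 and Slfn2), with a median log2 ratio of 0.71, where 0.365% and 0.748% of all 5482 such genes were higher and lower, with a median of 0.03. Against the matched cells 8 of 21 were higher and 0 lower (all genes, 1.65% and 0.796%). First-run values placed 11 of 15 such genes as higher and 0 as lower, where the 12 cells put 9.82% of all genes above and 3.85% below the 2-fold limit. Over the matched cells of that run 11 of 17 were higher and 1 (Socs1) lower (all genes, 10.1% and 4.99%). A ratio past 2-fold in the first run can thus rest on a few UMIs. Counts for the other lists are given in the same way, over genes at 20 CPM in both groups.

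Among the transcription factors of this list, Egr2 and Egr3, relatives of Egr1 with known roles at both checkpoints, were in few of the third-run cells and above the comparison cells there. Egr3 was at 21.5 CPM against 1.57 in the comparison cells and 0.524 in the matched cells, a log2 ratio of 3.78 (3.09 to 4.43) over the former, from 28 UMIs in 14 of 101 cells. Egr2 was at 9.96 CPM against 1.08, from 13 UMIs in 8 cells (log2 ratio 3.21, 2.20 to 4.11). The shares of cells with a UMI were 13.9% for Egr3 and 7.92% for Egr2, and the shallower B cells of the run held the pair in 12.5% and 8.06%. Egr2 in the first run held 7 UMIs in 6 of 12 cells, against 8 of 4971 comparison cells with a UMI, and Egr3 was at 0 in both groups. Nr4a2 was at 49.1 CPM against 12.8 (log2 ratio 1.94, 1.54 to 2.31) and Nr4a3 at 29.9 against 7.98 (1.91, 1.39 to 2.38) in the third run. In the first run Nr4a2 rested on 3 UMIs and Nr4a3 on 1.

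Among the listed genes with at least 20 UMIs in each run, Id3 ranked highest by the lesser of its 2 log2 ratios. It was counted in 57 of 101 cells of the third run, with a median of 1 and up to 24 UMIs per cell, and its level was 194 CPM (171 to 219) against 38.6 in the comparison cells and 29.9 in the matched cells. The log2 ratio was 2.33 (2.13 to 2.52) and 2.70. Of the B cells of the run, 33.1% held an Id3 UMI. Of the first-run cells 9 of 12 held it, with a median of 3 and up to 15 UMIs, at 793 CPM (596 to 1035) against 144 (log2 ratio 2.46, 2.05 to 2.85). The E-protein genes that Id3 opposes were at like levels in both groups of the third run, with Tcf12 at 222 against 241 CPM and Tcf3 at 74.3 against 72.7. Id2, a second inhibitor, was at 30.7 CPM against 186 in the comparison cells and 36.1 in the matched ones.

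The list also holds surface receptors. Cd69, an early activation marker, was at 448 CPM against 132 in the third run (log2 ratio 1.76, 1.64 to 1.88), in 70.3% of the Egr1+ Cd5+ cells and 80.8% of the B cells. Pdcd1, which encodes the inhibitory receptor PD-1, was at 92.7 CPM against 18.5 (2.32, 2.04 to 2.6), in 52.5% and 3.33%. Cd28 was at 159 CPM against 79.0 and Cd27, a costimulatory receptor, at 281 against 154 (1.0 and 0.87). First-run Pdcd1 was at 206 CPM against 23.7 (3.11, 2.24 to 3.87), Cd28 at 323 against 73.0 (2.15, 1.47 to 2.75) and Cd27 at 514 against 222 (1.21, 0.69 to 1.69). All 3 intervals lay above 0 with 14, 22 and 35 UMIs.

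The feedback regulators Nfkbia and Dusp2 did not reach 2-fold over the comparison cells of the third run. Nfkbia, the inhibitor of NF-κB, was at 226 CPM against 132 in the third run and at 294 against 69.5 in the first (log2 ratios 0.78 and 2.08), and over the matched cells of the third run its log2 ratio was 1.58. Dusp2, a MAP kinase phosphatase, was at 345 against 186 CPM and at 250 against 39.6 (0.89 and 2.66), and its log2 ratio over the matched cells of the third run was 1.04. The genes of the list that were lower in the third run were Bcl2a1b, Bcl2a1d, Xcl1, Rgs1 and Slfn2, with log2 ratios of -3.04, -1.89, -3.31, -1.55 and -1.14. Against the matched cells these ratios were -0.19, 1.35, 1.42, 0.59 and 0.35, and none of the 5 remained lower by 2-fold. The matched cells lack Cd44, Trac, Cd8a and Cd8b1 UMIs and are limited in depth, and the part of each limit in this shift was not tested. Myc, Socs1, Socs3 and Ubash3a, which lay within 2-fold in the third run, had log2 ratios of -0.48 (-0.90 to -0.08), -0.78 (-1.18 to -0.40), -0.38 and -0.26.

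**Figure D2:**
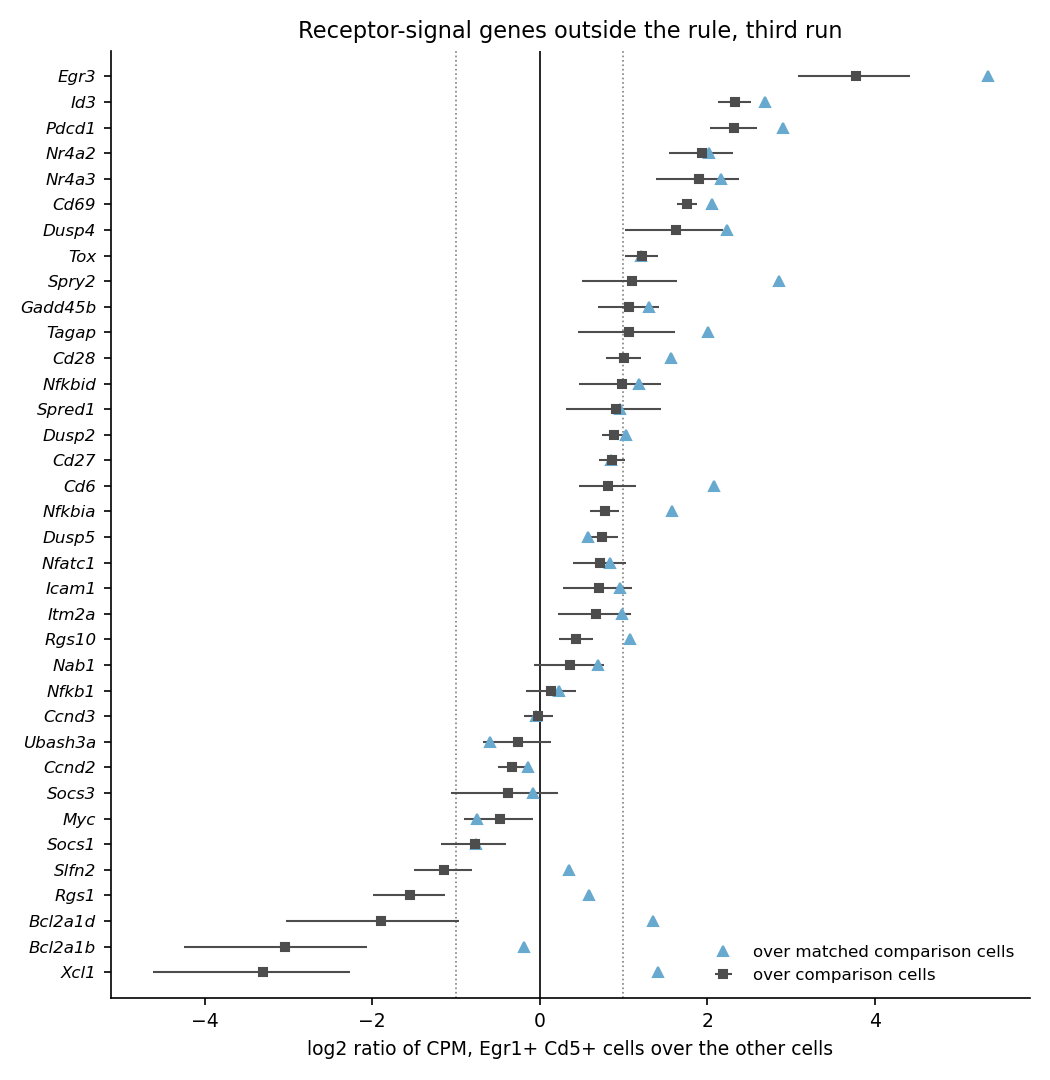
Log2 ratio of CPM, Egr1+ Cd5+ cells over other cells of the third run, for the 36 receptor-signal genes outside the rule at 20 CPM or more in either the Egr1+ Cd5+ or the comparison cells. Squares with 95% counting intervals are over the comparison cells, triangles over the matched comparison cells, and dotted lines mark 2-fold. Egr3, Id3 and Pdcd1 lie at the top with 3.78, 2.33 and 2.32, and the 5 genes at the bottom are not lower by 2-fold over the matched cells. Egr3 and Pdcd1 reached 20 CPM in the Egr1+ Cd5+ cells but not in the comparison cells, so the filter favours their place.

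Immediate early genes can also answer to tissue dissociation. Of 18 AP-1 and other immediate early genes at 20 CPM in both groups of the third run, 0 were past 2-fold over the comparison cells in either direction (median log2 ratio 0.24). Over the matched cells 3 of 17 were higher (median 0.84). Of all such genes, 0.365% were higher and 0.748% lower over the comparison cells, and 1.65% and 0.796% over the matched cells. In the first run 4 of 9 were higher (median 0.87), where 9.82% of all such genes were higher and 3.85% lower. Over the matched cells of that run 2 of 9 were higher (median 0.22), where 10.1% of all such genes were higher and 4.99% lower. The difference between this list and the receptor-signal list was not tested. Jun was at 676 CPM against 355 and Fos at 233 against 150. First-run Fos was at 0 UMIs and Jun at 5 UMIs, 73.4 CPM against 66.1. The part of dissociation in the Egr1 counts was not tested.

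The proximal signalling genes carry the signal from the receptor into the cell. Of 28 kinases and adaptors at 20 CPM in both groups of the third run, 0 passed 2-fold against the comparison cells (median log2 ratio 0.25). Over the matched cells 5 of 25 were higher (median 0.45). Of all such genes, 0.365% were higher and 0.748% lower over the comparison cells, and 1.65% and 0.796% over the matched cells. First-run counts were 7 higher and 1 lower of 22 (median 0.72), where 9.82% and 3.85% of all genes were, and over the matched cells 6 higher and 2 lower of 21 (median 0.41), where 10.1% and 4.99% were. Zap70 was at 78.9 CPM against 50.2 and 27.5 in the 2 comparison groups. Lck, whose product phosphorylates the receptor complex, was at 355 CPM against 481 and 519 (log2 ratio -0.44, -0.57 to -0.31, over the comparison cells). Of the CD3 genes, Cd3g was at 1085 CPM against 1592 (-0.55, -0.63 to -0.48) and Cd3e at 487 against 533 (-0.13, -0.25 to -0.02). Cd3g in the first run was at 1718 CPM against 1375, with the opposite sign (0.32, 0.05 to 0.58).

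Of the genes of the DN3 stage and of recombination, 12 were at 20 CPM in both groups of the third run. Of these, 0 were lower and 1 (Lef1) higher by 2-fold than in the comparison cells (median log2 ratio -0.34), and 3 were lower and 1 higher than in the matched cells (-0.49). Of all such genes, 0.748% were lower and 0.365% higher over the comparison cells, and 0.796% and 1.65% over the matched cells. Rag1, which cuts DNA for receptor rearrangement, was below that level in the Egr1+ Cd5+ cells, at 9.96 CPM against 127 and 138, from 13 UMIs (log2 ratio -3.67, -4.58 to -2.89). Notch3 was at 14.6 CPM against 44.4 (-1.61, -2.34 to -0.96). Dntt, which adds bases at the joints, was at 586 CPM against 971 (-0.73, -0.83 to -0.63). Dntt was also lower in the first run, at 485 CPM against 1050 (-1.12, -1.66 to -0.63). Bcl11b, a T-lineage commitment factor, was at 436 against 615 and at 235 against 413 (-0.50 and -0.81). Rag1 in the first run rested on 2 UMIs, with an interval of the log2 ratio of -4.29 to 0.61. First-run counts of this list were 2 higher and 2 lower of 12 (median log2 ratio -0.36), where 9.82% and 3.85% of all genes were. Over the matched cells of that run 2 were higher and 5 lower of 12, where 10.1% and 4.99% of all genes were. The median there was -0.72, against 0.18 for all genes.

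Of 13 immature γδ genes at 20 CPM in both groups of the third run, 4 (Id3, Igfbp4, Sox13 and Tox) were higher and 0 lower by 2-fold than in the comparison cells (median log2 ratio 0.62, with 0.365% of all genes higher), and 8 of 13 were higher than in the matched cells (1.29, with 1.65% of all genes higher). Id3 and Tox belong to this list and to the receptor-signal list. Sox13, an early γδ-lineage factor, was at 120 CPM against 39.1 (log2 ratio 1.61, 1.37 to 1.85). Etv5 was at 60.6 CPM against 17.7 (1.78, 1.42 to 2.11) and Igfbp4 at 153 against 50.9 (1.58, 1.37 to 1.79). Sox13 in the first run was at 0 UMIs, where the comparison cells held 14.4 CPM. That is below the 44.1 CPM that 3 UMIs over these 12 cells amount to, so a difference was not detectable at this depth. Of the list, the first run gave 3 higher and 0 lower of 10 (median 0.90), where 9.82% and 3.85% of all genes were. Over its matched cells 4 of 11 were higher and 0 lower, where 10.1% and 4.99% of all genes were. The median there was 0.098, against 0.18 for all genes. Lef1, a partner of Tcf7 in early T cells, was at 366 CPM against 119 in the third run and at 764 against 214 in the first (1.62 and 1.84). Ikzf2, which encodes Helios, was at 445 against 239 CPM and at 485 against 106 (0.89 and 2.20).

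The genes of the γ chain differed among themselves. Tcrg-C1 was at 384 CPM in the Egr1+ Cd5+ cells of the third run, against 473 in the comparison and 698 in the matched cells (log2 ratio -0.86 over the matched cells). Tcrg-C2 was at 394 CPM against 384 and 501, and Tcrg-C4 at 310 against 233 and 291. The constant segments are near-identical copies in part, and reads from them may have been divided or lost in counting. Of the variable segments, Tcrg-V1 was at 26.8 CPM against 9.63 (1.48, 0.94 to 1.98) and Trgv2 at 205 against 135 (0.60, 0.41 to 0.77). Of the mature γδ and innate-like genes, 15 reached 20 CPM in either group. Of these, 12 were lower and 1 higher by 2-fold than in the comparison cells (all genes, 2.13% and 0.871%). But 4 reached it in both groups, of which 1 was lower (Fcer1g) and 1 higher (Cd160), where 0.748% and 0.365% of all such genes were. Over the matched cells 1 gene of the list was at 20 CPM in both groups. Icos stood at 13.0 CPM against 84.0 and 12.6, and Cd160 at 52.9 against 23.8 and 6.47.

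**Figure D3:**
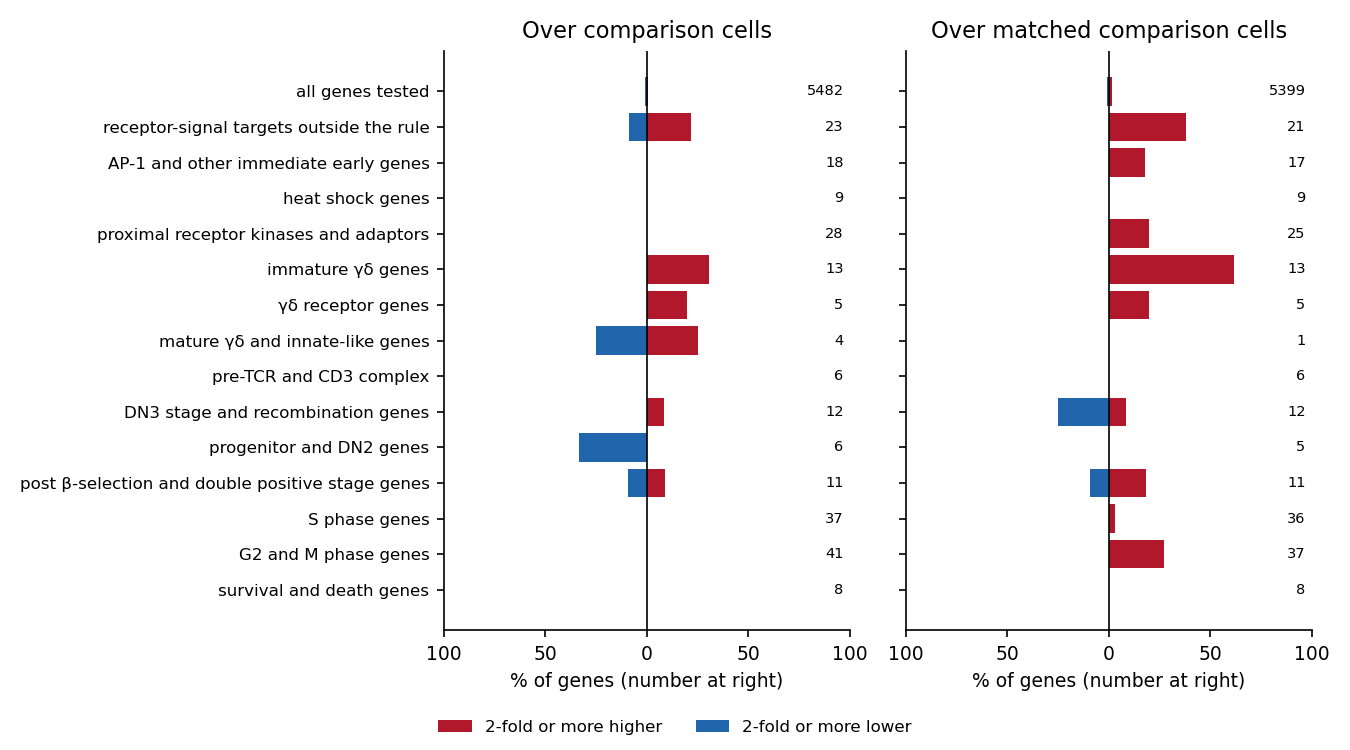
Share of the genes of each list that were at least 2-fold higher (right of 0) or lower (left of 0) in the Egr1+ Cd5+ cells of the third run, over the comparison cells (left panel) and the matched comparison cells (right panel), among genes at 20 CPM or more in both groups. The number of such genes stands at the right of each row, and the first row gives all genes. On the left panel 5 of 23 receptor-signal genes lie to the right and 2 to the left, and 4 of 13 immature γδ genes lie to the right and 0 to the left.

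To hold the receptor class constant, the 92 cells of the third run with Trdc and no Ptcra were set beside the 1296 comparison cells with the same 2 features and with Trac, Cd44, Cd8a and Cd8b1 at 0 (medians of 12280 and 9726 UMIs). Trdc then differed by a log2 ratio of 0.54 and Il2ra by -0.96. Id3 was at 206 CPM against 43.5 (2.25), Pdcd1 at 99.9 against 19.6 (2.35), Lef1 at 387 against 100 (1.95) and Cd69 at 411 against 136 (1.60). Of the immature γδ list, which also holds Id3, Sox13 was at 125 against 58.4 CPM (1.09) and Igfbp4 at 156 against 83.1 (0.91). For the first run, the 10 such cells against 1415 gave 0.89 for Trdc, 2.46 for Id3, 2.68 for Pdcd1 and 2.23 for Lef1. Over all comparison cells of the third run the ratios of Id3, Pdcd1, Lef1 and Cd69 were 2.33, 2.32, 1.62 and 1.76. Over the matched cells, which also have Trac, Cd44, Cd8a and Cd8b1 at 0, they were 2.70, 2.90, 1.89 and 2.06. The ratios of Id3, Pdcd1 and Cd69 were thus smaller within the Trdc class than over the matched cells, and that of Lef1 was not. These comparisons differ in receptor class, depth and the genes held at 0, and the part of each was not tested. A counterpart for cells with Ptcra alone could not be formed, since 0 cells in the first run and 1 in the third held Ptcra without Trdc.

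The 47 Egr1+ Cd5+ cells of the third run with an Il2ra UMI and the 54 without it had like depths (medians of 12323 and 11397 UMIs) and different transcripts. This split, and the genes named for it, were chosen after their values were seen. Trdc was at 529 CPM in the cells with Il2ra and at 1110 in those without. Id3 was at 99.6 against 285 CPM, and was counted in 17 of 47 against 40 of 54 cells. Among the 12 first-run cells, Id3 was at 504 CPM with Il2ra and 1076 without, and Trdc at 445 and 1890. The shares of those cells with Id3 were 3 of 4 and 6 of 8, at median depths of 7585 and 3627.5 UMIs. In the third run Pdcd1 was at 49.8 CPM with Il2ra against 134 without, and Lef1 at 215 against 514. Ccr9, a homing receptor of thymocytes, was at 174 against 473 in these cells, and Gzma at 286 against 1207. In the other direction, Ly6d was at 1187 CPM with Il2ra against 228 without, Dntt at 951 against 231 and Notch1 at 208 against 77.0. All 5 cells with a Ptcra UMI were among the 47 with Il2ra. Egr1 itself was at 157 CPM with and 214 without Il2ra, and Cd5 at 120 and 230.

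Id3 differed in the same direction in the matched comparison cells, so its difference by Il2ra was also present in cells with Egr1, Nab2 and Nr4a1 at 0. B cells were not left out of the matched cells, and 45 of the 995 held a Cd79a UMI. In 869 matched cells with Il2ra Id3 was at 18.6 CPM, and in 126 without it at 114. Over the matched cells of the same Il2ra class, the Egr1+ Cd5+ cells had Id3 log2 ratios of 2.42 with Il2ra and 1.32 without, Pdcd1 ratios of 3.04 and 1.17, Cd69 ratios of 1.82 and 1.92 and Lef1 ratios of 1.35 and 1.29. All 8 ratios were above 1. Mki67, a marker of cycling cells, was counted in 19 of 47 and 23 of 54 cells.

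**Figure D4:**
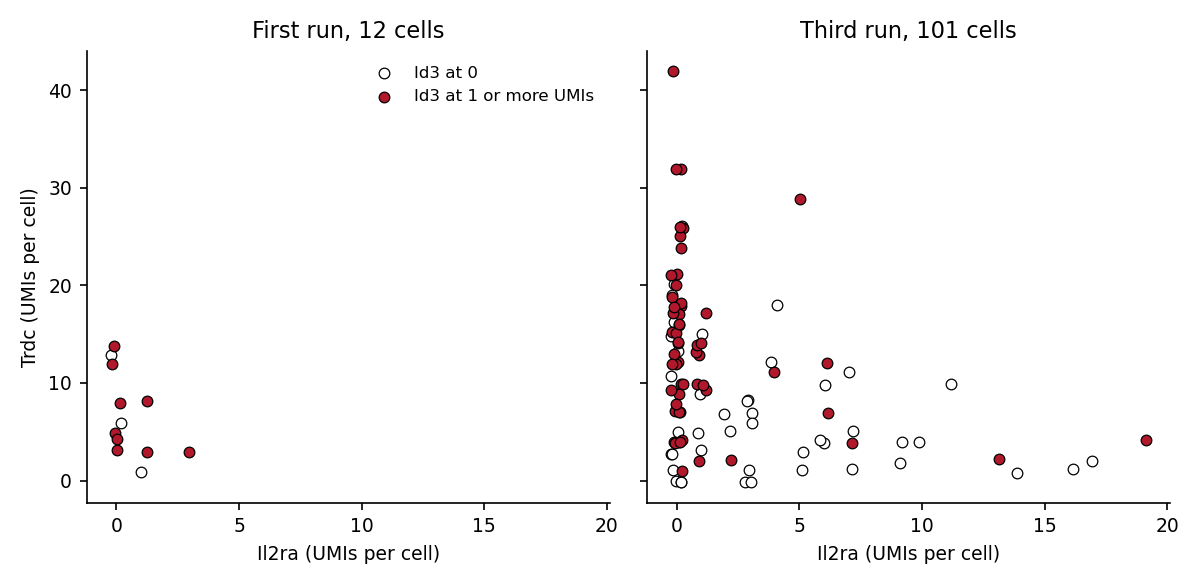
Il2ra and Trdc UMIs of each Egr1+ Cd5+ cell in the first run (12 cells) and the third run (101 cells), with points shifted at random by less than 1 UMI so that they can be told apart. Filled circles are cells with at least 1 Id3 UMI. The 3 third-run cells with the most Trdc (32 to 42 UMIs) have no Il2ra, the next (29 UMIs) has 5, and those with the most Il2ra (up to 19 UMIs) hold few Trdc UMIs.

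**Figure D5:**
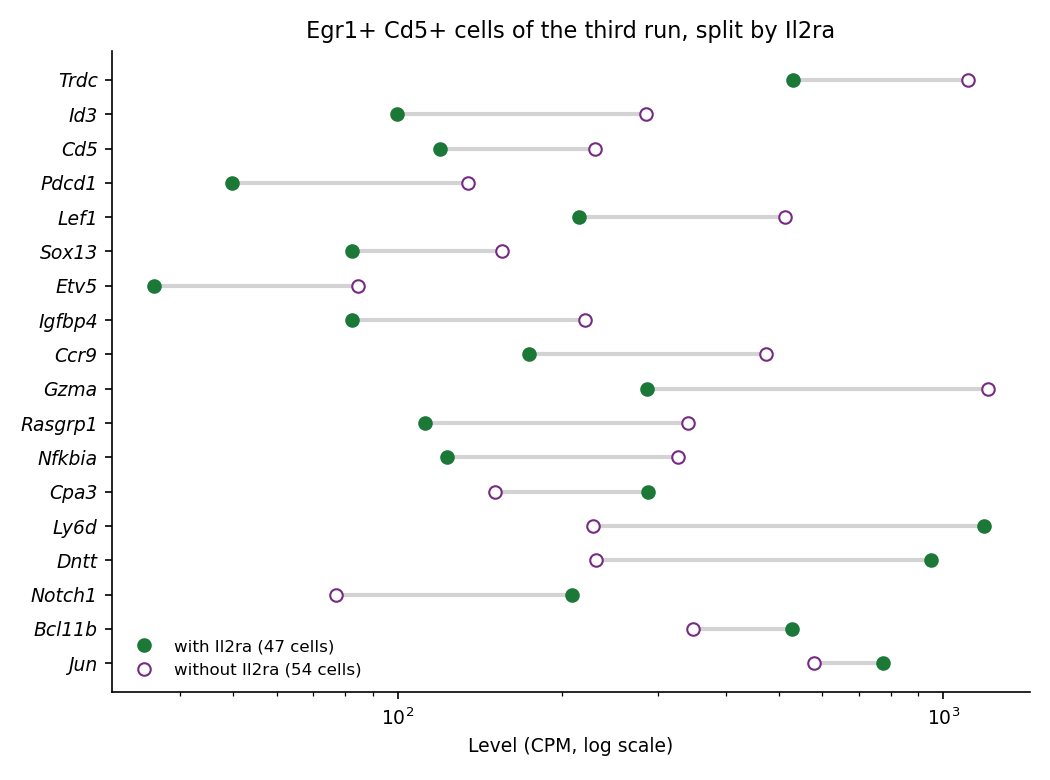
Levels in CPM (log axis) of 18 genes in the Egr1+ Cd5+ cells of the third run with an Il2ra UMI (filled, 47 cells) and without (open, 54 cells). Trdc (529 and 1110), Id3 (99.6 and 285) and Gzma (286 and 1207) are higher without Il2ra, and Ly6d (1187 and 228), Dntt (951 and 231) and Notch1 (208 and 77.0) are higher with it.

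Cell cycle genes differed between the 2 runs. Summed over 52 G2 and M phase genes, the Egr1+ Cd5+ cells of the third run were at 6909 CPM (6767 to 7053) against 6141 in the comparison cells and 4968 in the matched cells. In the first run they were at 5007 CPM (4490 to 5568) against 9076 and 6289, so that the order was the opposite. S phase genes were at 4404 CPM in the third run, against 3681 in the comparison cells and 3890 in the matched cells. In the first run they were at 6975 CPM against 6367 and 5396. Of 29 G2 and M phase genes at 20 CPM in both groups of the first run, 0 were higher and 8 lower by 2-fold (all genes, 9.82% and 3.85%), and over the matched cells 0 were higher and 4 lower of 28 (10.1% and 4.99%). In the third run 0 of 41 such genes passed 2-fold over the comparison cells (all genes, 0.365% higher and 0.748% lower). Over the matched cells 10 of 37 were higher (all genes, 1.65% higher and 0.796% lower). Of the S phase genes 0 of 37 passed 2-fold over the comparison cells, and 1 of 36 was higher than in the matched cells. First-run S phase counts were 3 higher and 2 lower of 38 over the comparison cells (all genes, 9.82% and 3.85%). Over the matched cells of that run 5 of 37 were higher and 0 lower (all genes, 10.1% and 4.99%). For the remaining lists, the third run gave 0 higher and 2 lower of 6 progenitor and DN2 genes over the comparison cells. Cpa3, a gene of this list, was counted in 52 of the 101 cells (51.5%), in 25 of 47 with Il2ra and 27 of 54 without. The share was 29.0% in the comparison cells, 48.0% in the matched cells and 6.11% in the shallower B cells. Of 11 genes of the stages after β-selection, 1 was higher (Cd28) and 1 lower (Arpp21, at 301 against 610 CPM). Past 2-fold were 0 of 9 heat shock genes and 0 of 8 survival and death genes. Of all genes at 20 CPM in both groups, 0.365% were higher and 0.748% lower. Over the matched cells 0 of 5 progenitor and DN2 genes passed 2-fold (all genes, 1.65% higher and 0.796% lower). Of the 11 genes of the stages after β-selection, 2 were higher and 1 lower there. Heat shock genes again gave 0 of 9, and survival and death genes 0 of 8.

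With listed genes included, 500 genes had enough UMIs in both runs to be ranked as higher, and 4 of them (Id3, Lef1, Trdc and Cd28) were past 2-fold in both. Outside the lists Tmsb10, which encodes an actin-binding thymosin, led the 10 genes named by the less extreme of the 2 log2 ratios, at 2526 CPM against 761 in the first run (1.73) and 2693 against 1521 in the third (0.82). It was followed by Sept7, Pdia6, Rexo2, Rap1a, Marcksl1, Zcrb1, Pfn1, Prkar1a and Rbm38, whose lesser ratios lay between 0.41 and 0.66, with a first-run interval that covered 0 for Rap1a and Prkar1a. Of 452 genes ranked as lower, 1 (Arpp21) was past 2-fold in both runs, with a log2 ratio of -1.02 in each. Over the matched cells its ratios were -1.56 and -1.38. In cells thinned to 2000 UMIs, of which 5 met the rule in each run, its ratio lay above 0 in both. Outside the lists Rgcc was at 338 CPM against 611 in the first run and at 167 against 343 in the third (-0.85 and -1.04), and Thy1, a surface marker of T-lineage cells, at 470 against 886 and at 244 against 368 (-0.92 and -0.59). The other named genes (Myl10, Cdv3, Pgls, Anxa2, Ly6e, Rps27rt, Tomm7 and Rps14) had lesser ratios of -0.21 to -0.39, and the first-run interval covered 0 for each of them but Rps14.

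Transcripts that mark other cell types were also counted. All 8 B cell markers had a UMI in the third run, with a summed level of 411 CPM against 1408 in the comparison cells and 401 in the matched ones, and Ighm led them at 198 CPM. Cd79a was counted in 5 cells, and 1 of these held 42 of its 53 UMIs, while Igkc was counted in 36 cells, with 127 UMIs of which 1 cell held 60. The cell with 42 Cd79a UMIs held 0 UMIs of Trdc, Ptcra, Il2ra and Id3 and may be a B cell. Of 12 myeloid and dendritic markers, 7 had a UMI, at 427 CPM in sum against 856, led by Cst3 at 150 CPM, with Itgam, Itgax, Fcgr3, Adgre1 and Siglech at 0. Of the 557 UMIs of these markers, 1 cell held 156. Of 9 NK and innate lymphoid markers, 6 had a UMI, at 1102 CPM against 980 in the comparison and 671 in the matched cells, led by Gzma, which γδ cells also express, at 753 CPM, with Ncr1, Eomes and Tbx21 at 0. Erythroid markers summed to 106 CPM against 33.1, of which Hbb-bt gave 134 UMIs, 133 of them in 1 cell. Stromal markers were limited to Epcam at 36.0 CPM. Of the mature αβ markers, Cd4 was at 0. In the first run B cell markers were at 352 CPM against 432, led by Ighm, with Cd79a, Ms4a1 and Pax5 at 0. Their part in the results was not tested, apart from leaving out cells with Cd79a.

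Doublets, droplets that held 2 cells, could also bring the rule genes together. When the 700 and 750 cells with the highest Scrublet scores were left out, 2 of the 12 and 15 of the 101 cells were among them (16.7% and 14.9%, against 12.7% and 9.99% of all cells). In the third run the Egr1+ Cd5+ cells left out had a median depth of 14975 UMIs and those kept 10816, and no ratio of Ptcra, Trdc or Il2ra changed direction in either run.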

How the data were processed

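Per the labels and the study's methods, libraries were made with 10x Genomics 3′ kits and the authors counted UMIs per gene and cell with Cell Ranger (version 4.0.0 in the file header of the third run) against mm10; per the labels, R 3.6.3 and Seurat 2.3 were used. The deposited files hold raw whole-number counts (28692, 28692 and 32285 genes), filtered to cell barcodes and not normalized. The limits on cells were those of the study's methods: 500 to 5000 detected genes and no more than 7% of UMIs from mitochondrial genes. Of the rule cells, depth was 2669 to 12926 UMIs in the first run and 5332 to 27555 in the third.

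UMIs were summed over the cells of a group within a run and divided by the group's total (CPM). Groups were compared by the log2 ratio of CPM with a conditional exact binomial interval, levels have exact Poisson and shares Clopper-Pearson intervals (95%), and a group at 0 was set to a floor of 3 counts. A gene was tested at 20 CPM or more in either group and called at 2-fold, rule genes left out; counts over lists also require 20 CPM in both groups, a choice made after the data were seen. No p-value was computed, since each sort is 1 library. Named genes outside the lists are the 10 highest and 10 lowest by the less extreme ratio of the 2 runs with at least 20 counts, observed or expected, in each. The members, the 21 gene lists and the comparisons were chosen with earlier results of these data known. No columns of other series were used. Doublets were kept, and removal of the 700 and 750 highest Scrublet scores was an alternative, as were a mitochondrial limit of 5%, thinning to 2000 UMIs, Egr1 at 2 or more, matched comparison cells, per-cell means, gene filters of 5 and 50 CPM and leaving out cells with Cd79a. The ratio step was tested on simulated data. Analyses used Python 3.11.15, numpy 2.4.6, scipy 1.17.1, pandas 2.3.3, scanpy 1.11.5 and matplotlib 3.10.9. Promoter sequences are from RefSeq (GRCm38.p6) and gene positions from GENCODE (mm10).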

Additional observations from a re-analysis of the deposited data

Results flagged for a closer look

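The second run, sorted for DN1 and DN2 cells without TCRγδ+ cells, was outside the comparisons above, and 6 of its 8852 cells (0.0678%) met the rule. Of these, 4 held Trdc without Ptcra and 2 neither gene, 5 held Il2ra and 0 held Ptcra. Id3 was at 272 CPM in them against 58.3 CPM in the run's 6700 comparison cells. An Id3 UMI was counted in 2 of the 6 cells, and 1 cell held 12, so this level rests mostly on 1 cell.

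For 17 listed genes the log2 ratios of the Egr1+ Cd5+ cells over the comparison cells had opposite signs in the 2 runs with both 95% counting intervals clear of 0. Other listed genes also differed in sign, with an interval that covered 0 in at least 1 run. The difference between the runs was not tested, since each run is 1 library, the sorts and kits differed and the first run held 12 such cells.
Among signal and survival genes, the first and the third run gave 0.78 and -0.48 for Myc, 2.1 and -0.34 for Ccnd2 and 1.46 and -0.15 for Btg1. For the chaperone Hsp90ab1 they gave -0.33 and 0.14.
Among receptor complex genes and effectors they gave -0.79 and 0.48 for Trbc1, 0.44 and -0.19 for Cd3d, 0.32 and -0.55 for Cd3g and -0.51 and 0.62 for Gzma.
The other 9 are cell cycle genes, all lower in the first run and higher in the third. The values were -0.68 and 0.48 for Rrm2, -2.44 and 0.53 for Ube2c, -0.87 and 0.41 for Birc5, -0.94 and 0.26 for Cks1b and -2.98 and 0.20 for Mki67. They were -1.10 and 0.25 for Cenpf, -1.92 and 0.41 for Ccnb2, -1.57 and 0.20 for Tubb4b and -2.03 and 0.40 for Cdca8. In the first run Mki67 rested on 1 UMI, and Cenpf had 0 and was set to the floor of 3 counts.
Over the matched comparison cells, 5 of the 17 genes had the same sign in both runs, with 0.90 and 0.74 for Btg1, 0.022 and 0.048 for Hsp90ab1, -0.48 and -0.77 for Cd3g, 0.072 and 0.84 for Gzma and 0.17 and 1.11 for Rrm2. The other 12 had opposite signs, and the intervals of both runs were clear of 0 for 2 of them, Trbc1 (-1.01 and 0.23) and Cenpf.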

How the results depend on the processing

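Of 84 recomputed values for the number of cells, the ratios of Ptcra, Trdc and Il2ra and the counts of genes, 55 stayed within the spread and 29 moved. The first-run ratios of Ptcra and Il2ra, whose intervals covered 0 over the comparison cells, changed sign, that of Ptcra in thinned cells and that of Il2ra to 0.041 with Egr1 at 2 or more. Over matched cells they were -1.38 and -1.71, with intervals below 0. Thinned to 2000 UMIs, 5 cells met the rule in each run, the log2 ratio of Trdc was 2.09 in the first run and 1.72 in the third, that of Ptcra 0.68 in the first run and that of Il2ra -1.53 in the third. With Egr1 at 2 or more UMIs, 5 and 46 cells met it, Trdc and Il2ra in the third run were at 0.81 and -0.49, and 97 genes were higher and 221 lower. Over matched comparison cells Trdc was at 1.02 and 1.04, Il2ra in the third run at -1.21, and 181 genes were higher there. Without cells of high Scrublet score Trdc in the first run was at 1.87 and 1817 genes were higher. At 5 CPM 1642 genes were higher in the first run, and 187 higher and 473 lower in the third run. At 50 CPM 483 were higher and 250 lower in the first run, and 23 and 53 in the third. With 20 CPM required in both groups, added after the data were seen, 410 were higher and 161 lower in the first run, and 20 and 41 in the third. The cause of these shifts was not tested, except that the gene filter sets how many genes enter.

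Of 681 values for single named genes 15 reversed from a ratio whose interval was clear of 0. Ratios whose intervals covered 0 also changed sign. Examples in the first run over matched cells are Sox4 (-0.26), Ighm (0.35) and Cdca7 (0.050). Among the 15, thinning gave -0.23 for Bcl2, -0.16 for Hspa8 and 0.15 for Arpp21 in the first run. In the third it gave -1.03 for Prkar1a, 0.18 for Thy1, 0.46 for Anxa2, 1.05 for Tomm7, 0.080 for Rps14, -0.14 for Bcl2 and 0.083 for Arpp21. Egr1 at 2 or more gave -0.15 for Hspa8 in the first run and 0.10 for Cdca7 in the third. Matched cells gave -0.38 for Tcrg-C4 in the first run and 0.18 for Ighm in the third, and leaving out cells with Cd79a, added after the data were seen, gave 0.34 for Ighm in the third run. Counts of genes were not run for the thinned cells or for the 5 first-run cells with Egr1 at 2 or more, and no ratio is given where the rule cells held 0 UMIs. Over the 12 cells of the first run 3 UMIs amount to 44.1 CPM, so ratios of genes at low levels are coarse there. No paired analysis was possible because each sort was made once.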
